A study of Mus musculus with 9 samples.

Results

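The genes described here make cholesterol and fatty acids or control that synthesis. The set is a fixed list of 38 gene symbols, matched by name among the 55487 genes of a mouse count table, and all 38 were found. It holds 7 genes of the mevalonate pathway, 11 that lead from squalene to cholesterol, 5 that control the SREBP transcription factors, 4 of sterol transport or the LXR response, 5 of fatty acid synthesis and 6 that lengthen or desaturate fatty acids. A filter on low counts passed 37 members. The other one, Abcg1, a sterol exporter, had 0 counts in all 9 libraries. In the library with the fewest effective counts, a count of 0 allows up to 0.0791 CPM (3 counts), where CPM stands for counts after scaling all libraries to the same total. This limit covers counting error only.

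Poly-A selected RNA was sequenced from MCEC, a cultured cell line derived from the endothelium of mouse heart. There are 9 libraries: 3 from wild-type cells (WT), 3 after knockdown of Zbtb46 (KD) and 3 with enforced overexpression of that gene (OE). Zbtb46 encodes a zinc finger transcription factor. The labels do not say how either change was made or whether cells were cloned. No vector control was analysed here, so a change against WT cannot be told apart from an effect of the modification procedure. Whether the 3 libraries of a group came from separate cultures is not stated, and the p-values then measure only the spread between these libraries, which may be technical.

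Animal cells build cholesterol from acetyl-CoA through mevalonate, farnesyl diphosphate, squalene and lanosterol. SREBP proteins, encoded by Srebf1 and Srebf2, wait in the endoplasmic reticulum bound to SCAP, and INSIG proteins hold them there while sterols are abundant. When sterols run low, SCAP carries SREBP to the Golgi, where proteases release the part that enters the nucleus. SREBP2 acts mainly on cholesterol genes and SREBP1 mainly on fatty acid genes. They bind sterol regulatory elements in promoters, usually with NF-Y and Sp1 bound nearby. LXR receptors act on the other side of the balance and raise sterol export when oxysterols accumulate.

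Promoter letters are shown for 4 members, chosen after the letters were seen, because they span what the set holds: Hmgcs1 has a sterol regulatory element, Mvk has the NF-Y letters several times, Insig1 has a cluster of Sp1 letters and was strongly raised in OE, and Elovl6 was also raised in OE but has none of the 3 motifs. Each stretch is 200 bases from RefSeq (GRCm38.p6), on the plus strand and read 5′ to 3′. Capitals mark the matches to the sterol regulatory element (TCACNCCAC), NF-Y (CCAAT) or Sp1 (GGGCGG) on either strand. The Hmgcs1 stretch is chr13:119690151-119690350, that of Mvk chr5:114444069-114444268, that of Insig1 chr5:28071163-28071362 and that of Elovl6 chr3:129532155-129532354.
Hmgcs1: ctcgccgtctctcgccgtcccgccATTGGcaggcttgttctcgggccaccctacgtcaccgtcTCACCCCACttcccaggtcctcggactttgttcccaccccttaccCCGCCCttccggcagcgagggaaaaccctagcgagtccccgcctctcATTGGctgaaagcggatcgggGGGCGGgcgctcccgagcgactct
Mvk: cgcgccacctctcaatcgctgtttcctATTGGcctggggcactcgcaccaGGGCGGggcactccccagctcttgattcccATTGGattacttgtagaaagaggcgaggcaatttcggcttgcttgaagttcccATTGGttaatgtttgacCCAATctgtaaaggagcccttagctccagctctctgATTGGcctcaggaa
Insig1: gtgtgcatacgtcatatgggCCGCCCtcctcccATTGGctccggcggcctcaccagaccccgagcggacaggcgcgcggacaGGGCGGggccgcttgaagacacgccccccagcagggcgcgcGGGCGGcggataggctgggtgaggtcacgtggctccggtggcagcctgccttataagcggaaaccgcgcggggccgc
Elovl6: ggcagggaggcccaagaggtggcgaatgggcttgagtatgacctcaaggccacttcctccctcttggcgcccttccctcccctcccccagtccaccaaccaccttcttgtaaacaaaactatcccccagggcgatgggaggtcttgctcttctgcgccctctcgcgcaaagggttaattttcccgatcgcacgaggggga

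RefSeq promoter windows were matched by symbol for 30 of the 38 members, and the 250 bases before each start were searched. Abcg1, Fads1, Fdft1, Fdps, Scd1, Scd2, Sqle and Stard4 had no entry. The NF-Y letters stood in 23 of the 30 members (76.7%), against 37.5% of the 27025 genes with a window and 41.1% of the 10644 of them that were tested for expression. The Sp1 letters stood in 24 members (80%), against 35.4% and 63.2%. The sterol regulatory element as spelled stood in 1 member, Hmgcs1, at 137 bases before its start, against 1.22% of all genes with a window. Both the NF-Y and the Sp1 letters were present in 19 members, and 2 members, Acaca and Elovl6, held none of the 3 motifs in the windows searched. The only windows of Acaca, Acacb and Tm7sf2 lie inside the genes, downstream of their annotated starts. Those of Acaca and Acacb begin at 84195188 on chromosome 11 and 114165268 on chromosome 5, where the annotated genes begin at 84129672 and 114146535. That of Tm7sf2, on the minus strand of chromosome 19, reaches up to 6068100, and the annotated start is at 6068373. Matches in these windows are counted above. The sequence before those annotated starts was not searched. These are matches of letters, not measured binding sites.

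Total counts ran from 39491828 to 55745849 per library. Features of ribosomal RNA took 7.32% to 17.1% of the counts in WT, 9.44% to 11.8% in KD and 14.2% to 18.03% in OE. Levels are in CPM after scaling with TMM factors. Zbtb46 itself was at 13.3, 14.4 and 13.2 CPM in WT, at 11.7, 11.4 and 10.7 in KD, and at 192, 189 and 194 in OE. It fell by 17.8% in KD (log2 change -0.28, SE 0.055, edgeR adjusted p = 0.00144) and was 14.0-fold higher in OE (log2 change 3.81, SE 0.039, edgeR adjusted p = 3.22e-21). The libraries labelled KD therefore differed from WT much less in the targeted gene than those labelled OE. Of 9 endothelial markers, Kdr, Tek and Eng were tested, Erg had 0 counts everywhere, and Pecam1, Cdh5, Tie1, Emcn and Vwf did not exceed 0.222 CPM. The summed endothelial markers, nearly all Eng, were at 124 to 137 CPM in WT, 109 to 114 in KD and 84.4 to 90.8 in OE. Kdr and Tek had means of only 2.64 and 1.84 CPM in WT. On the log2 scale, Kdr fell by 0.91 in KD (edgeR adjusted p = 0.00261) and by 0.58 in OE (adjusted p = 0.0276). Tek fell by 1.99 in OE (edgeR adjusted p = 3.12e-06), beside -0.38 in KD (adjusted p = 0.278). Fibroblast and mural markers, nearly all Col1a1, summed to 5009.8 to 5588.6 CPM in WT, 4755 to 4814 in KD and 4004 to 4096 in OE, whereas 4 adipocyte markers together did not exceed 0.298 CPM. The part of these marker and ribosomal RNA differences in the results below was not tested, and in bulk RNA a change in the make-up of the cells and a change per cell cannot be told apart.

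Most sterol and fatty acid genes were higher in OE than in WT. Of the 37 members tested, 28 rose and 2 fell in OE at an adjusted p under 0.05 (edgeR's quasi-likelihood test, Benjamini-Hochberg adjustment over all 16955 genes tested). Over all genes, 36.4% were called in this comparison, 17% higher and 19.5% lower, while 81.1% of the tested members were called. The median log2 change was 0.42 for the members and 0.0020 for all genes. In 29 members the OE and WT libraries did not overlap, against 45.1% of all genes. The changes ran from -0.36 for Abca1 to 1.06 for Msmo1. A change of at least 0.5 on the log2 scale was reached by 15 of the called members, all of them higher, against 13.4% of all genes in either direction. At least 2-fold changes were found in 3 members (Insig1, Cyp51 and Msmo1), against 5.34% of all genes. Leaving out 1 library ended the calls of Mvk, Tm7sf2, Abca1 or Fads2 in some cases, as given below, and of no other member. With library totals in place of TMM, 24 members rose and 2 fell, and the share of all calls that were higher moved from 46.6% to 31.6%.

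Against WT, the KD libraries showed smaller and divided changes: 7 members rose, 9 fell and 21 did not pass the test. The called members made up 43.2% of those tested, and the background over all genes was 21.3%, with 11% higher and 10.4% lower. The median log2 change of the members was 0.016, beside -0.0022 for all genes, and the range was -0.44 for Tm7sf2 to 0.56 for Idi1. Libraries of the 2 groups did not overlap in 21 members, against 34.7% of all genes. Idi1 was the only called member with a change of at least 0.5, a size reached by 5.69% of all genes, and 0 members reached 2-fold, against 2.64%. The number of calls was less stable than in OE: it ran from 10 to 18 when single libraries were left out, with 10 calls when KD replicate 3 was omitted, 11 when KD replicate 1 was and 12 when WT replicate 3 was. With library totals in place of TMM, 4 members rose and 8 fell, and the share of all calls that were higher moved from 51.4% to 35.8%.

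Set directly against KD, OE had 26 members higher and 4 lower, so 81.1% were called against a background of 41.5% over all genes (19.4% higher, 22.1% lower). The median log2 difference was 0.50 for the members and 0.011 for all genes, and the groups did not overlap in 32 members, against 55.4% of all genes. A difference of at least 0.5 was found in 19 members, all higher in OE, against 18.6% of all genes, and Acss2 and Insig1 differed at least 2-fold, against 7.49%. The 4 members lower in OE than in KD were Ebp, Sc5d, Elovl5 and Abca1. Since both comparisons against WT use the same 3 WT libraries, their values are set side by side below and not correlated. By group mean, 17 members were in the order KD, WT, OE from lowest to highest, as were 23% of all genes, and 13 were in the order WT, KD, OE, as were 16.4%. With no overlap between any 2 groups, 10 members had the former order, against 4.87% of all genes, and 4 the latter, against 1.77%.

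**Figure D1:**
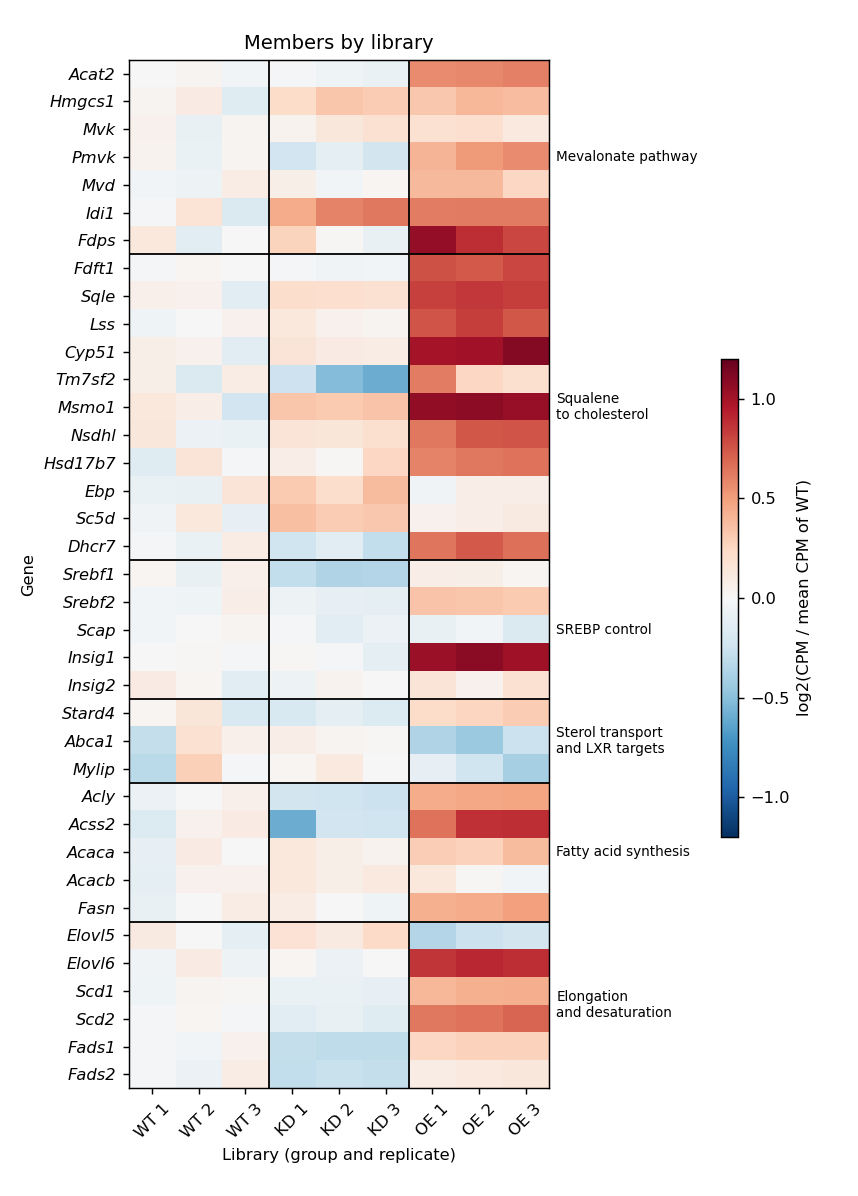
Heat map of the 37 tested members (rows, grouped by role) in the 9 libraries (columns), coloured by log2 of the CPM over the mean CPM of WT. The 3 OE libraries are red in most rows, by up to 1.10 for Cyp51 in OE replicate 3, while the KD libraries are mixed, with red for Idi1 and blue for Srebf1, Fads1 and Tm7sf2.

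All 7 genes of the mevalonate pathway rose in OE, with a median log2 change of 0.50. In KD, 2 rose, 1 fell and 4 did not pass the test. Over all genes, 17% were higher in OE, while 11% were higher and 10.4% lower in KD. The summed level of the 7 was 289.8 ± 7.36 CPM in WT (SD, n = 3), 319.6 ± 6.81 in KD and 390.5 ± 4.72 in OE. Acat2, the thiolase that joins acetyl-CoA units at the start of the pathway, was at 60.7, 61.7 and 59.2 CPM in WT, at 59.5, 58.3 and 57.5 in KD, and at 89.9, 90.5 and 91.8 in OE. All OE libraries lay above all others, while KD and WT overlapped. Acat2 was 1.50-fold higher in OE (log2 change 0.58, SE 0.020, edgeR adjusted p = 1.63e-09), beside -0.05 in KD (SE 0.023, adjusted p = 0.483).

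Idi1, the isomerase that makes the building block for prenyl chains, was at 22.3, 25.1 and 19.9 CPM in WT, at 30.6, 33.9 and 34.8 in KD, and at 34.3, 34.5 and 34.6 in OE. Both modified groups lay above WT and overlapped each other. The rise was 1.47-fold in KD (log2 change 0.56, SE 0.11, edgeR adjusted p = 1.67e-05) and 1.53-fold in OE (0.62, SE 0.097, adjusted p = 1.33e-06), and the difference of OE from KD was 0.06 (SE 0.056, adjusted p = 0.568). Hmgcs1, the synthase whose promoter is printed above, followed the same order: 92.4, 96.8 and 81.5 CPM in WT, 105, 114 and 112 in KD, and 113, 119 and 117 in OE, with log2 changes of 0.29 in KD (edgeR adjusted p = 0.000695) and 0.36 in OE (adjusted p = 2.35e-05).

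Fdps, which makes farnesyl diphosphate, was low, at 6.12, 5.13 and 5.59 CPM in WT, at 6.73, 5.65 and 5.27 in KD, and at 11.7, 10.4 and 9.78 in OE. The OE libraries were clear of the rest by a wide margin for such a low level. Its rise in OE was 1.90-fold (log2 change 0.92, SE 0.10, edgeR adjusted p = 3.18e-06), and its change in KD was 0.08 (SE 0.13, adjusted p = 0.744). Fdps shares 26.7% of its exon bases with the gene model Gm43738 on the same strand, so its counts are uncertain. The remaining members, Mvk, Pmvk and Mvd, rose in OE by 0.17 to 0.50 on the log2 scale. Pmvk, a mevalonate pathway kinase, was the member of this group that fell in KD, by 0.19 (edgeR adjusted p = 0.0387), and it lay above KD in OE by 0.69 (adjusted p = 1.55e-08). Its KD call was lost without WT replicate 1 or 3, KD replicate 1 or 3, or OE replicate 2 (adjusted p = 0.0567 to 0.136 by edgeR), in a fit of only KD and WT (adjusted p = 0.0575) and with limma-voom (adjusted p = 0.0533). The OE call of Mvk, at 0.17, was lost without WT replicate 2 or without OE replicate 1 or 2 (adjusted p = 0.0723 to 0.105), and with library totals in place of TMM (0.11, adjusted p = 0.259).

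The genes from squalene to cholesterol moved furthest in OE: 9 of 11 rose, none fell, and the median log2 change was 0.71. Their summed level was 568 ± 21.4 CPM in WT (SD, n = 3), 628 ± 8.43 in KD and 973 ± 12.9 in OE. In KD, 4 rose, 2 fell and 5 did not pass the test, with a median of 0.12. Beside these counts, 17% of all genes were higher in OE, and 11% were higher and 10.4% lower in KD. Fdft1, squalene synthase, commits farnesyl diphosphate to sterols. It was at 60.2, 62.0 and 61.1 CPM in WT, at 60.2, 59.4 and 59.9 in KD, and at 104, 102 and 106 in OE. The WT and KD libraries lay within a few CPM of each other, and the OE level was 1.70-fold that of WT (log2 change 0.76, SE 0.023, edgeR adjusted p = 1.96e-11; KD -0.03, SE 0.014, adjusted p = 0.691). Fdft1 shares 18.3% of its exon bases with Ctsb on the opposite strand, and Ctsb fell in OE by 0.24 on the log2 scale (edgeR adjusted p = 0.000134).

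Sqle, squalene epoxidase, a rate-limiting step of the later pathway, was at 96.4, 95.7 and 84.7 CPM in WT, at 107, 106 and 105 in KD, and at 163, 166 and 164 in OE. The 3 groups were fully separate, in the order WT, KD, OE. Its log2 change was 0.20 in KD (SE 0.061, edgeR adjusted p = 0.00515) and 0.83 in OE (SE 0.061, adjusted p = 1.67e-11). The KD call was lost with library totals in place of TMM (0.16, adjusted p = 0.11). Lss, which folds the chain into lanosterol, was at 69.5, 71.7 and 74.8 CPM in WT, at 78.7, 74.4 and 73.8 in KD, and at 122, 128 and 121 in OE. KD overlapped WT (0.07, SE 0.042, adjusted p = 0.327) and OE lay above both (0.78, SE 0.040, adjusted p = 3.48e-11).

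Cyp51, the lanosterol demethylase (chromosome 5, 4081145 to 4104746, minus strand), was one of 3 members that reached 2-fold in OE. It was at 116, 115 and 102 CPM in WT, at 124, 119 and 119 in KD, and at 222, 224 and 238 in OE. KD lay just above WT without passing the test (0.12, SE 0.065, edgeR adjusted p = 0.11), and OE was 2.05-fold above WT (1.03, SE 0.069, adjusted p = 1.19e-12). Cyp51 shares 3.76% of its exon bases with Akap9 on the opposite strand, which rose in OE by 0.33 (adjusted p = 0.0309). Msmo1, the methylsterol oxidase that acts after Cyp51 (chromosome 8, 64718139 to 64733792, minus strand), was at 69.7, 67.3 and 54.5 CPM in WT, at 80.3, 79.3 and 80.7 in KD, and at 133, 134 and 131 in OE. Here the WT libraries were the most spread and the groups were separate, with a rise of 1.25-fold in KD (0.33, SE 0.11, adjusted p = 0.00167) and of 2.08-fold in OE (1.06, SE 0.11, adjusted p = 1.01e-09).

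Nsdhl and Hsd17b7 work in the same demethylation complex as Msmo1. Nsdhl was at 29.2, 25.3 and 25.1 CPM in WT, at 29.5, 29.5 and 30.3 in KD, and at 41.3, 44.4 and 44.7 in OE. Its log2 change was 0.71 in OE (SE 0.080, edgeR adjusted p = 2.12e-08) and 0.17 in KD (SE 0.072, adjusted p = 0.0799). Hsd17b7 was at 17.6, 21.7 and 19.3 CPM in WT, at 20.6, 19.7 and 23.2 in KD, and at 29.6, 30.4 and 30.8 in OE. It rose by 0.63 in OE (SE 0.089, edgeR adjusted p = 1.93e-06), while KD overlapped WT (0.11, SE 0.11, adjusted p = 0.36).

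The last steps of the pathway did not move together. Sc5d, a sterol desaturase, was at 61.2, 68.8 and 58.7 CPM in WT, at 80.6, 77.7 and 78.5 in KD, and at 65.0, 66.3 and 67.7 in OE. It was highest in KD (0.33 against WT, SE 0.070, edgeR adjusted p = 0.000167), overlapped WT in OE (0.08, SE 0.071, adjusted p = 0.316), and was lower in OE than in KD by 0.25 (SE 0.023, adjusted p = 0.000779). Ebp, the sterol isomerase that precedes it, had the same order of groups, with log2 changes of 0.30 in KD (edgeR adjusted p = 0.00792) and 0.04 in OE (adjusted p = 0.728). Its KD call was lost without KD replicate 3 (0.26, adjusted p = 0.0582) and with library totals in place of TMM (0.26, adjusted p = 0.051), and its lower level in OE than in KD without KD replicate 3 or OE replicate 1 (adjusted p = 0.0677 and 0.0649). Dhcr7, the reductase that completes cholesterol in one branch, went the other way. It was at 32.1, 30.8 and 34.5 CPM in WT, at 27.5, 29.5 and 26.5 in KD, and at 50.6, 53.9 and 51.2 in OE, so that all 3 groups were separate. Dhcr7 fell by 0.22 in KD (SE 0.066, edgeR adjusted p = 0.0131) and rose by 0.68 in OE (SE 0.056, adjusted p = 1.66e-08). Its KD call was lost without WT replicate 3 or without KD replicate 1 or 3 (-0.21 to -0.17, edgeR adjusted p = 0.0515 to 0.0833). Tm7sf2, a sterol reductase at a mean of 6.81 ± 0.674 CPM in WT (SD, n = 3), also fell in KD (-0.44, adjusted p = 0.0274) and rose in OE (0.37, adjusted p = 0.035). It shares 12.1% of its exon bases with Vps51 on the same strand, and Vps51 fell in both groups, by 0.25 in each. The KD call of Tm7sf2 was lost without WT replicate 1 or 3 or KD replicate 2 or 3 (edgeR adjusted p = 0.0755 to 0.133), and its OE call without WT replicate 2 (0.28, adjusted p = 0.132) or OE replicate 1 (0.23, adjusted p = 0.249). The OE call was also lost with library totals in place of TMM (0.31, adjusted p = 0.1) and in a fit of only OE and WT (adjusted p = 0.0503).

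**Figure D2:**
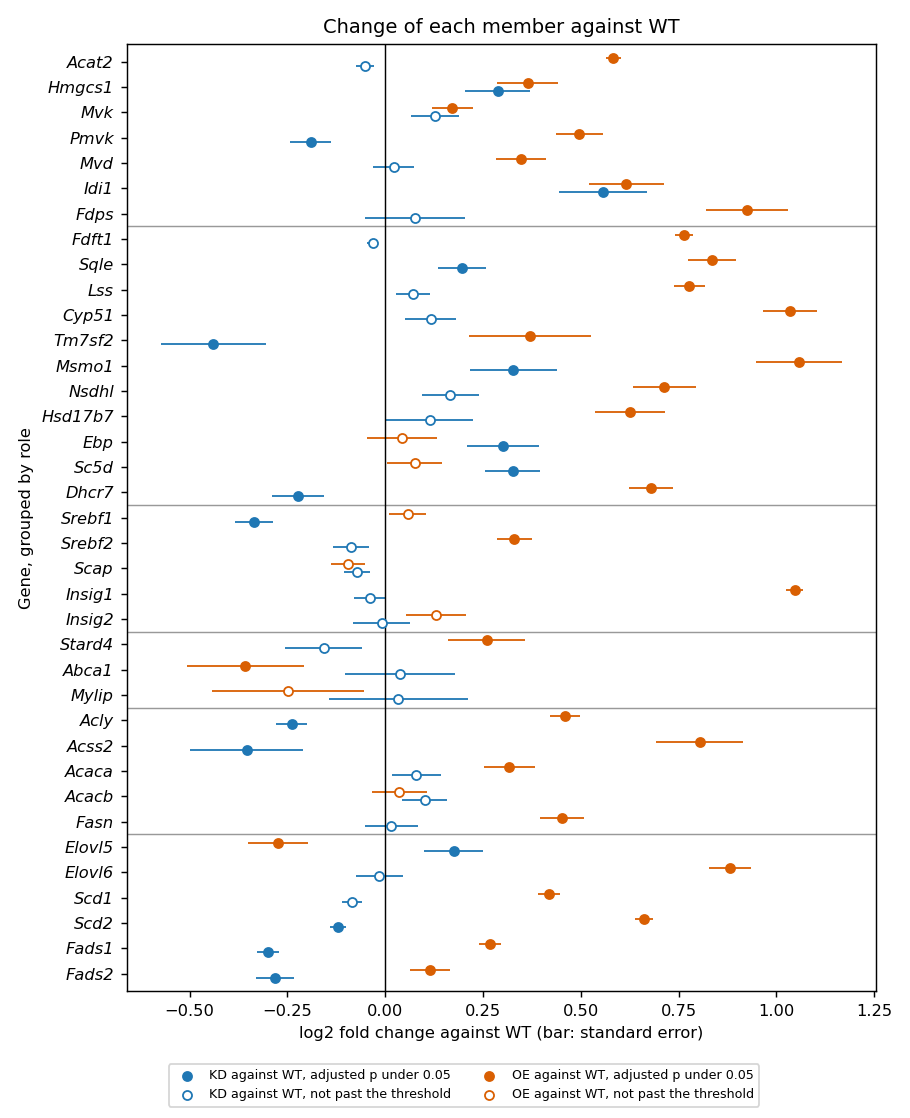
Log2 fold change against WT of each tested member (rows, grouped by role) in KD (blue) and OE (orange), with standard errors as bars; filled points passed an adjusted p of 0.05 and open points did not. OE points reach 1.06 (Msmo1) and lie right of 0 for 33 of the 37 members, while KD points lie on both sides of 0, between -0.44 and 0.56.

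Among the genes that control SREBP, Insig1 stood out. Insig1 encodes an endoplasmic reticulum protein that retains SCAP and SREBP, and is itself a textbook SREBP target (chromosome 5, 28071363 to 28078662, plus strand). It was at 76.1, 77.2 and 75.7 CPM in WT, at 77.3, 75.4 and 70.4 in KD, and at 157, 162 and 154 in OE. WT and KD overlapped, and the OE mean was 2.07-fold that of WT (1.05, SE 0.022, edgeR adjusted p = 1.98e-13). The change in KD was -0.04 (SE 0.041, adjusted p = 0.631). Insig2, its homologue, was at 20.4, 19.4 and 17.5 CPM in WT, at 18.3, 19.6 and 19.1 in KD, and at 21.3, 19.8 and 21.6 in OE. All 3 groups lay within that narrow range, with log2 changes of -0.01 in KD (SE 0.073, adjusted p = 0.954) and 0.13 in OE (SE 0.077, adjusted p = 0.191).

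The 2 SREBP genes differed in which group departed from WT. Srebf2, on chromosome 15 from 82147181 to 82205379, was at 404, 400.0 and 439 CPM in WT, at 399, 387 and 384 in KD, and at 527, 521 and 515 in OE. It rose 1.26-fold in OE (0.33, SE 0.044, edgeR adjusted p = 1.74e-06), and KD did not pass the test (-0.09, SE 0.046, adjusted p = 0.144). Srebf1, on chromosome 11 from 60199089 to 60222581, was at 278, 257 and 285 CPM in WT, at 222, 214 and 215 in KD, and at 289, 287 and 279 in OE. OE overlapped WT (0.06, SE 0.048, adjusted p = 0.332) and KD was below every other library: Srebf1 fell by 20.7% (-0.33, SE 0.049, adjusted p = 9.58e-06). Gene counts do not separate the 2 promoters of Srebf1, whose transcripts are known as SREBP-1a and SREBP-1c. Scap, the escort protein, was at 62.2, 63.4 and 64.9 CPM in WT, at 62.5, 58.3 and 60.4 in KD, and at 59.9, 62.1 and 56.4 in OE, and passed no test (-0.07 in KD, adjusted p = 0.367; -0.10 in OE, adjusted p = 0.158). By edgeR, 2 of these 5 genes rose in OE and 1 fell in KD, shares called of 40% and 20% that are near the 36.4% and 21.3% of all genes. Srebf1 shares 1.93% of its exon bases with Rai1 on the opposite strand, and Rai1 fell in KD by 0.15 (edgeR adjusted p = 0.0383) and in OE by 0.29 (adjusted p = 7.46e-05).

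The members of sterol transport and the LXR response were few and mixed. Stard4, which moves cholesterol between membranes, was at 70.9, 76.9 and 61.2 CPM in WT, at 61.2, 64.3 and 62.1 in KD, and at 81.0, 83.3 and 86.0 in OE. It rose in OE by 0.26 (SE 0.099, edgeR adjusted p = 0.00303), and its KD libraries overlapped WT (-0.16, SE 0.098, adjusted p = 0.0902). The rise missed the threshold with library totals in place of TMM (0.20, adjusted p = 0.052). Abca1, the main exporter of cholesterol to lipoproteins and an LXR target, was at 70.8, 97.9 and 89.8 CPM in WT, at 90.9, 88.2 and 86.8 in KD, and at 67.1, 63.2 and 71.9 in OE. It fell in OE by 0.36 (SE 0.15, edgeR adjusted p = 0.0155), but WT replicate 1 lies among the OE libraries. Mylip, an LXR-induced ligase that degrades lipoprotein receptors, had a mean of 2.78 ± 0.592 CPM in WT (SD, n = 3) and passed no test. The call of Abca1 was lost without WT replicate 3 (-0.34, edgeR adjusted p = 0.123) and without OE replicate 2 (-0.31, adjusted p = 0.0508).

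**Figure D3:**
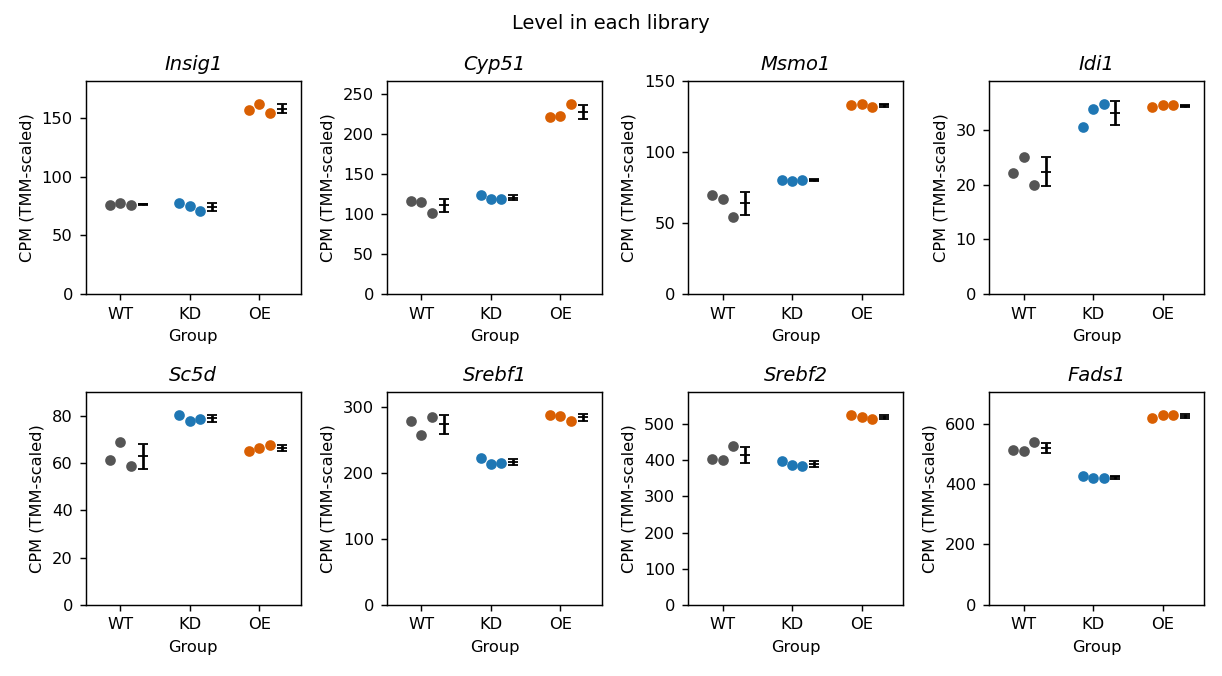
Level in CPM of 8 members in each library (points) by group, with the group mean and SD (bar, n = 3) beside them and axes that start at 0. Insig1, Cyp51 and Msmo1 are higher in OE alone or most in OE, Idi1 is higher in both modified groups, Sc5d is highest in KD, and Srebf1 is lowest in KD at 214 to 222 CPM.

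Of the 5 genes that make palmitate from citrate and acetate, 4 rose in OE, with a median log2 change of 0.45 over the 5. In KD, 2 of them fell. The background over all genes was 17% higher in OE and 10.4% lower in KD. The summed level was 1053 ± 57.6 CPM in WT (SD, n = 3), 1027 ± 39.7 in KD and 1424 ± 30.9 in OE. Acly, which cleaves citrate to cytosolic acetyl-CoA, was at 251, 264 and 274 CPM in WT, at 226, 223 and 219 in KD, and at 358, 363 and 364 in OE. The 3 groups were separate in the order KD, WT, OE. Acly fell by 0.24 in KD (SE 0.040, edgeR adjusted p = 0.000196) and rose by 0.46 in OE (SE 0.038, adjusted p = 1.28e-08).

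Acss2, which makes acetyl-CoA from acetate, was far lower, at 7.36, 8.50 and 8.79 CPM in WT, at 5.42, 7.01 and 6.95 in KD, and at 12.9, 15.1 and 15.2 in OE. The order of groups was that of Acly. Acss2 fell by 0.35 in KD (SE 0.14, edgeR adjusted p = 0.0355) and rose by 0.80 in OE (SE 0.11, adjusted p = 7.29e-06). Its difference of OE from KD, 2.23-fold (1.16, SE 0.14, adjusted p = 4.14e-08), was the largest of the 37 tested members. The KD call was lost without WT replicate 2 or 3, KD replicate 1 or OE replicate 2 (-0.35 to -0.24, edgeR adjusted p = 0.0533 to 0.212), and in a fit of only KD and WT (adjusted p = 0.0686). Acss2 shares exon bases with Ggt7 and Gss on the opposite strand, 1.94% and 3.89% of its own, and in WT both partners had more counts than Acss2, at 11.4 and 21.8 CPM. Ggt7 fell in KD by 0.63 (edgeR adjusted p = 0.000182) and in OE by 0.28 (adjusted p = 0.0445). Gss rose in OE by 0.46 (adjusted p = 2.87e-05), beside -0.16 in KD (adjusted p = 0.142). The part of these partners in the counts of Acss2 was not tested. Fasn, the synthase, and Acaca, the carboxylase before it, rose in OE by 0.45 (edgeR adjusted p = 1.3e-07) and 0.32 (adjusted p = 2.42e-05) and passed no test in KD. Acacb, the mitochondrial form of the carboxylase, had a mean of 5.98 ± 0.388 CPM in WT (SD, n = 3) and did not pass the test in any comparison.

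Genes of elongation and desaturation had the highest summed level of the role lists. Their sum was 3290.2 ± 33.8 CPM in WT (SD, n = 3), 2947 ± 28.9 in KD and 4574 ± 88.7 in OE, with no overlap between groups. Scd2 was the largest part of it, with a mean of 1728 CPM in WT, while Elovl5 and Elovl6 had 109 and 49.8 CPM. In OE 5 of 6 rose and 1 fell, and in KD 1 rose and 3 fell. Of all genes, 17% rose and 19.5% fell in OE, and 11% rose and 10.4% fell in KD. Scd2, a stearoyl-CoA desaturase that makes monounsaturated fatty acids, was at 1716, 1757 and 1711 CPM in WT, at 1587, 1620.3 and 1559 in KD, and at 2681, 2713 and 2803 in OE. The OE libraries were far above the others, and KD lay just below WT. Scd2 fell by 0.12 in KD (SE 0.020, edgeR adjusted p = 0.0174) and rose by 0.66 in OE (SE 0.023, adjusted p = 6.46e-12). Its KD call was lost without KD replicate 1 (-0.12, adjusted p = 0.0581) and without KD replicate 3 (-0.11, adjusted p = 0.106), and with library totals in place of TMM (-0.16, adjusted p = 0.0672). Scd1, also on chromosome 19, rose by 0.42 in OE (edgeR adjusted p = 2.16e-08) with -0.09 in KD (adjusted p = 0.126); the 2 genes have similar sequences and reads could be split between them.

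Elovl6, which lengthens palmitate to stearate, was at 48.3, 53.4 and 47.6 CPM in WT, at 50.6, 47.4 and 49.9 in KD, and at 90.2, 93.1 and 92.0 in OE. KD overlapped WT (-0.01, SE 0.060, edgeR adjusted p = 0.893), and OE was 0.88 above WT (SE 0.054, adjusted p = 3.06e-11). This rise stands beside a promoter stretch with no match to the 3 motifs. Elovl5, an elongase of polyunsaturated fatty acids, went the opposite way, with a rise of 0.18 in KD (edgeR adjusted p = 0.0268) and a fall of 0.27 in OE (adjusted p = 0.000503). The KD call was lost without WT replicate 3 and without either KD replicate 1 or 3 (0.12 to 0.17, adjusted p = 0.0789 to 0.146), in a fit of only KD and WT (adjusted p = 0.0568) and under 3 of the 4 other scalings (adjusted p = 0.0638 to 0.162).

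Fads1 and Fads2 encode desaturases of polyunsaturated fatty acids and lie near each other on chromosome 19. Fads1 was at 511, 508 and 539 CPM in WT, at 428, 419.6 and 419.7 in KD, and at 619, 628 and 630.3 in OE. The 3 groups were separate, with WT in the middle. Fads1 fell by 0.30 in KD (SE 0.029, edgeR adjusted p = 6.86e-06) and rose by 0.27 in OE (SE 0.028, adjusted p = 7.64e-06). Fads2 fell by 0.28 in KD (SE 0.049, edgeR adjusted p = 4.82e-05). Its rise of 0.11 in OE (SE 0.051, adjusted p = 0.037) is the smallest call of that comparison, and there WT and OE libraries overlap. It was lost on leaving out any 1 library other than WT replicate 3 (0.073 to 0.13, edgeR adjusted p = 0.0593 to 0.155). It was also lost with library totals in place of TMM (0.053, adjusted p = 0.575), with no filter beyond 1 count (adjusted p = 0.0933) and in a fit of only OE and WT (adjusted p = 0.111).

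Per kilobase of exon, levels in WT ranged over a wide span. Scd2 led at 316 ± 4.63 CPM per kilobase (SD, n = 3), followed by Fads2 at 176 ± 10.4, Fads1 at 108 ± 3.54 and Scd1 at 62.3 ± 1.90. Srebf2, Fasn, Acly and Srebf1 came next, at 48.6 to 57.7 CPM per kilobase, and the SDs of Srebf2 and Fasn were larger than the gap between their means. Among cholesterol enzymes Cyp51 was highest, at 25.2 ± 1.81 CPM per kilobase, beside Insig1 at 24.7 ± 0.245. Tm7sf2, Fdps, Mylip, Acss2 and Acacb were lowest among the tested members, at 0.621 to 1.55 CPM per kilobase. The length used is that of all annotated exons of a gene merged, such as 10163 bases for Acss2. It lowers the value of a gene whose main transcript is shorter. Fdps and Tm7sf2 also share exon bases with another gene on the same strand, as given above.

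Position in the genome touches 4 of the results in OE, and to a smaller extent some of those in KD. In OE, 14 of 142 windows of 20 Mb had a median log2 change of their tested genes beyond 0.2 in either direction (range -0.52 to 0.36), while in KD there were 0. The 4 members in those windows are Hmgcs1 on chromosome 13 (window median -0.26), Mvd on chromosome 8 (-0.44), and Sc5d and Elovl5 on chromosome 9 (-0.41 and -0.34). Relative to its window, Hmgcs1 was higher in OE by 0.62 instead of 0.36, Mvd by 0.79 instead of 0.35 and Sc5d by 0.49 instead of 0.08. Elovl5 was at 0.06 instead of -0.27, and the difference of Sc5d between OE and KD turned from -0.25 to 0.28. With every window median taken off, 34 of 37 members were above 0 in OE, with a median of 0.49. KD medians were smaller, at 0.16 for the Hmgcs1 and Sc5d windows and 0.11 for those of Elovl5 and Idi1. By the same measure, Hmgcs1 was higher in KD by 0.12 instead of 0.29 and Sc5d by 0.16 instead of 0.33. Elovl5 was higher by 0.07 instead of 0.18 and Idi1 by 0.45 instead of 0.56. Of the other called KD rises, Sqle was at 0.18 instead of 0.20, and Msmo1 and Ebp grew to 0.40 and 0.35. Among the called KD falls, Acly was at -0.16 instead of -0.24, Pmvk at -0.14 instead of -0.19 and Srebf1 at -0.29 instead of -0.33. Fads1 was at -0.24 instead of -0.30, Fads2 at -0.22 instead of -0.28 and Tm7sf2 at -0.38 instead of -0.44. Dhcr7 stayed at -0.22, Scd2 was at -0.11 instead of -0.12 and Acss2 at -0.36 instead of -0.35. With KD window medians taken off, 17 members were above 0 and 20 below. What lies behind the shifted windows was not tested.

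**Figure D4:**
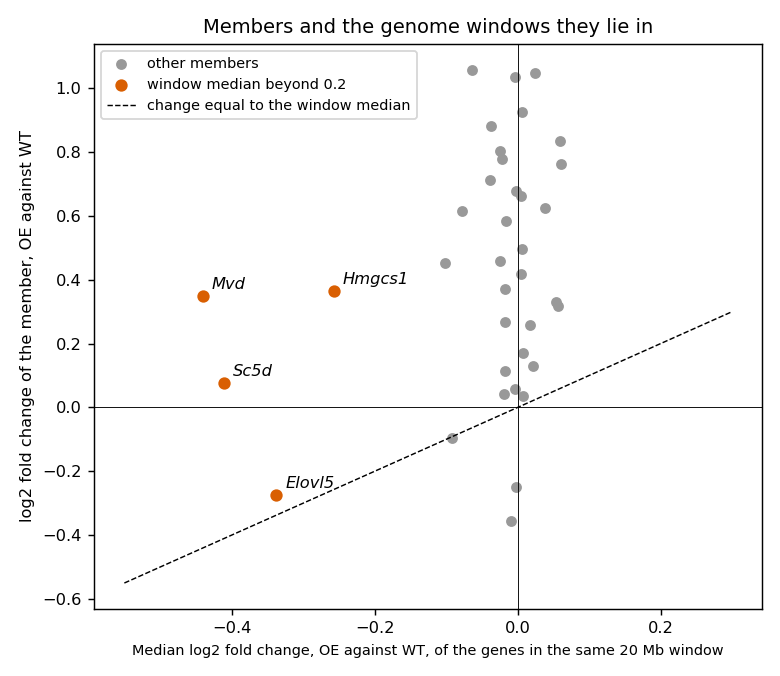
Log2 change of each tested member in OE against WT (vertical axis) against the median log2 change of the genes in its 20 Mb window (horizontal axis); the dashed line marks equal values. Mvd, Hmgcs1, Sc5d and Elovl5 (orange) lie in windows with medians of -0.44 to -0.26, and Elovl5 alone of these lies close to the line.

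Other genes of sterol and lipid metabolism, 48 in 6 lists, were divided in both comparisons. Of the 45 tested, 12 rose and 9 fell in OE, with a median log2 change of -0.013, and 10 rose and 9 fell in KD, with a median of 0.018. Thus 46.7% were called in OE, beside 36.4% of all genes and 81.1% of the members, and 42.2% in KD, beside 21.3% of all genes. Of 6 genes of SREBP processing and INSIG turnover, none rose and 2 fell in OE, a share called (33.3%) near that of all genes, and 4 rose in KD, where 11% of all genes rose. Of 4 LXR and RXR receptor genes, 2 fell in OE (Nr1h3 and Rxra), where 19.5% of all genes fell. The other 2, Nr1h2 and Rxrb, fell in KD, where 10.4% of all genes fell. Nr1h3 had few counts, 36, 36 and 32 in WT and 2, 16 and 21 in OE (SE 0.81, edgeR adjusted p = 0.0356).

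Mbtps1, the protease that makes the first cut in SREBP, was at 266, 279 and 281 CPM in WT, at 263, 272 and 273 in KD, and at 171, 171 and 169 in OE. It fell in OE by 0.69 (SE 0.026, edgeR adjusted p = 1.47e-11), in the opposite direction to most members, and its KD change was -0.03 (adjusted p = 0.631). Lpin1, a phosphatidate phosphatase of glycerolipid synthesis, was at 14.3, 15.1 and 13.0 CPM in WT, at 13.1, 11.8 and 11.8 in KD, and at 26.0, 27.8 and 30.0 in OE, a rise of 0.98 (SE 0.087, edgeR adjusted p = 4.56e-09). Dgat2, which completes triglycerides, was at 7.25, 8.25 and 8.35 CPM in WT, at 4.43, 3.69 and 4.28 in KD, and at 11.4, 10.4 and 10.7 in OE. It fell in KD by 0.94 (SE 0.10, edgeR adjusted p = 4.29e-06) and rose in OE by 0.44 (SE 0.074, adjusted p = 0.00238), the order of groups seen for Acly and Fads1. Nus1, of the dolichol branch, was at 65.5, 68.0 and 61.4 CPM in WT, at 81.6, 84.2 and 80.8 in KD, and at 78.8, 78.6 and 83.3 in OE. Both modified groups lay above WT and overlapped each other, with a rise of 0.34 in KD (SE 0.046, edgeR adjusted p = 3.81e-05) and 0.30 in OE (SE 0.051, adjusted p = 4.66e-05).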

How the data were processed

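RNA-seq counts of 9 libraries were used. Per the values, the authors deposited raw counts: whole numbers for each gene in each library, with totals that differ. The submitters' processing notes name GRCm38 and mm10. The aligner, counting program, strand use and annotation release are not given in the sources used here, so genes that share exon bases (12 of the 38 members) may share counts. Of 55774 rows, 455 repeat 168 genes with equal counts, and each gene was kept once.

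Counts were fitted with edgeR 4.0.16 in R 4.3.3: filterByExpr by group, TMM, quasi-likelihood fit over all 9 libraries with group as the only term, and Benjamini-Hochberg adjustment over the 16955 genes tested, at a threshold of 0.05. Standard errors come from the SDs of log2 CPM with a prior count of 2. An exact permutation test could not pass that threshold with 3 libraries against 3. Exon lengths, over the merged exons of all annotated transcripts, and positions are from GENCODE on GRCm38. The procedure was tested on simulated data. limma 3.58.1 and DESeq2 1.42.0 served as alternatives. Python 3.11.15 with matplotlib 3.10.9, pandas 2.3.3 and numpy 2.4.6 made the tables and figures.

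The members, role lists and tests were chosen with earlier results of these data known. Values in every library are given for members called with a log2 change of at least 0.5 against WT, for the member with the smallest p of each role list in each comparison, for Srebf1, Srebf2, Scap, Insig1 and Insig2, and for the 2 genes with the smallest p against WT in each comparison among the other lists. Members outside this rule that are named singly were chosen after their values were seen.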

Additional observations from a re-analysis of the deposited data

How the results depend on the processing

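The member counts were recomputed under 4 other scalings, 2 other filters, DESeq2, limma-voom, a fit of only the groups compared, a replicate block and with each library left out. Calls in OE against WT numbered 26 to 30 and in OE against KD 29 to 32. With library totals alone, the members higher in KD numbered 4 in place of 7 and the other pathway genes called in KD 11 in place of 19. The share of all genes called in KD was then 14.6% in place of 21.3%. Leaving out single libraries gave 10 to 18 members called in KD, 5 to 9 higher and 5 to 9 lower. It also gave 1 to 2 members lower in OE, and 12 to 23 other pathway genes called in KD. Over these leave-outs, 14.5% to 27.1% of all genes were called in KD. The lowest counts of members lower in KD, 5, came without KD replicate 1 and without KD replicate 3, the 1 member lower in OE without WT replicate 3 and without OE replicate 2, and the 12 other pathway genes without KD replicate 2. Over all genes, the share of calls that were higher moved in KD from 51.4% to 35.8% with library totals and 36.7% with totals without ribosomal RNA, and in OE from 46.6% to 31.6% with library totals; the cause was not tested.

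Most reversals were of changes near 0 that had not passed the test. For Scap, OE against KD became 0.039 with upper-quartile factors, 0.034 with totals without ribosomal RNA and 0.014 without OE replicate 3. Srebf1 in OE against WT became -0.00135 with library totals. Insig2 in KD became 0.038, 0.0046 and 0.019 without WT replicate 1, WT replicate 2 and KD replicate 1, and Elovl6 in KD became 0.041 and 0.010 without WT replicate 2 and KD replicate 2. Fdps in KD became -0.035, and Idi1 in OE against KD -0.0028, without KD replicate 1. Over all leave-outs these ran from -0.067 to 0.038 for Insig2 in KD, -0.045 to 0.041 for Elovl6 in KD, -0.035 to 0.15 for Fdps in KD, -0.055 to 0.014 for Scap and -0.0028 to 0.099 for Idi1 in OE against KD. The exception is Sc5d in OE against KD, a called difference that became 0.28 with the medians of 20 Mb windows removed, an alternative without a test.

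Replicate numbers did not pair the libraries, since same-numbered libraries correlated at -0.042 to 0.049 after removal of group means. With the replicate block, 16, 30 and 30 members were called in KD against WT, OE against WT and OE against KD, the same numbers as without it. Mylip, the tested member with the fewest counts, had 84 to 202 per library in WT, and whether depth bears on its missed calls was not tested.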
